A study of Rattus norvegicus with 6 samples.

Results

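Autophagy genes were followed in rat mesenchymal stem cells, the stromal precursors of bone and fat, through a list of 36 gene symbols taken by name. The list covers the machinery that builds autophagosomes and the receptors that load them. Of the 30560 gene rows in the deposited table, 35 carried a listed symbol, 1 row each, and all 35 passed the filter on low counts. Atg4a had no row under its symbol and is not counted. All 6 poly(A) RNA-seq libraries came from WT cells that had received 24 hours of 200 nM doxorubicin, which breaks DNA and can drive cells into senescence. In the 6 days of fresh medium that followed, 3 libraries' cells were given vehicle (Dox) and 3 libraries' cells SMNV at 100 µg/ml (SMNV), an agent whose name the labels do not expand. Every group therefore carries the doxorubicin exposure, and no library from unexposed cells was analysed here. The labels do not say whether the libraries of a group came from separate cultures or donors, so p-values measure the spread between these libraries, which may be technical.

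Autophagy wraps cytoplasm in a double membrane, the autophagosome, and delivers it to the lysosome. The ULK1 kinase complex starts the process, the VPS34 lipid kinase complex marks the site with phosphatidylinositol 3-phosphate, and lipid is supplied by ATG9 vesicles and ATG2 transfer proteins. Ubiquitin-like conjugation then attaches ATG8 proteins (LC3 and GABARAP) to the membrane, where cargo receptors such as p62 dock. In stromal and other long-lived cells autophagy removes damaged mitochondria and protein aggregates, and both its loss and its activation have been described in senescence. Transcript levels do not measure the flux of the pathway, and none of the values below are flux. In bulk RNA, fewer cells expressing a gene and less RNA per cell cannot be told apart.

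The libraries held 18640909 to 21506967 estimated counts. Log2 CPM, counts scaled to library size, correlated at 0.989 to 0.992 (Pearson) between libraries of the same group and at 0.947 to 0.969 across groups. All 9 mesenchymal stromal markers examined were above 1 CPM in every library, with a summed level of 25160 to 28865 CPM in Dox and 40703 to 49050 in SMNV. Most of that sum was Col1a1, at 17753 to 21866 CPM in Dox and 35106 to 43665 in SMNV. Of the others, Cd44, Itgb1, Pdgfra and Cd9 were lower in every SMNV library than in any Dox library, Eng and Pdgfrb were higher, and Thy1 and Nt5e overlapped. Nt5e was low, at 1.45 to 2.39 CPM over the 6 libraries. The haematopoietic markers Ptprc, Cd34 and Itgam and the endothelial markers Cdh5 and Kdr had no counts. Haematopoietic Cd14 and endothelial Tek were also above 1 CPM in every library, at 3.42 to 5.24 and 1.03 to 2.49 CPM. The summed level of the 5 haematopoietic markers was 4.13 to 5.24 CPM in Dox and 3.99 to 5.49 in SMNV, and that of the 5 endothelial markers 1.45 to 3.04 and 1.27 to 2.33. The 4 smooth muscle markers, all detected, summed to 222 to 267 CPM in Dox and 416 to 478 in SMNV, but Smtn alone was higher, at 90.8 to 110 against 290 to 356 CPM. Des was lower, at 106 to 135 CPM in Dox and 97.9 to 101 in SMNV, and Myh11 and Cnn1 overlapped between the groups. The part of these cells or genes in the results below was not tested.

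How the autophagy genes differed when doxorubicin-exposed cells received SMNV was read from the 3 SMNV and 3 Dox libraries. Of the genes listed, 10 rose, 11 fell and 14 missed the threshold (edgeR's quasi-likelihood test, Benjamini-Hochberg adjusted p under 0.05). The called share was 60%, beside a background in which 60.4% of all 12614 tested genes were called, 30.5% higher and 29.9% lower. The median log2 fold change of the 35 genes was 0.00, and that of all tested genes was -0.01. Changes were small: the median size was 0.27 on the log2 scale, beside 0.36 over all tested genes. A rise of at least 1.5-fold was found in 5 genes (14.3%, against 18.5% of all tested genes), and the largest fall, 0.47 on the log2 scale, did not reach that size, which 6.25% of all tested genes did. The CPM of the 3 Dox and 3 SMNV libraries did not overlap for 24 of the 35 genes (68.6%), where 66.9% of all tested genes showed the same. The counts of the members thus lay near those of all tested genes, and the values below show which members rose and which fell.

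**Figure D1:**
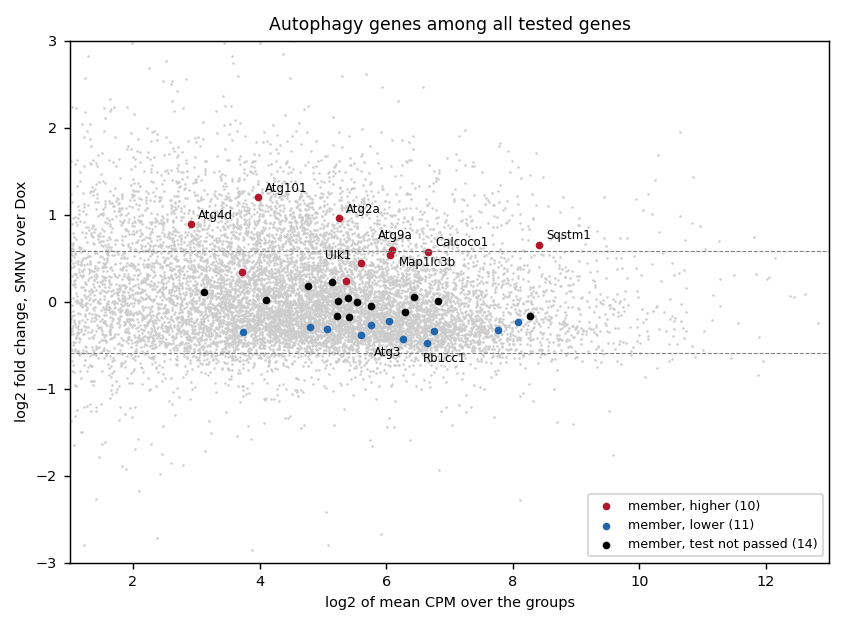
Log2 fold change (SMNV over Dox, y axis) against log2 mean CPM (x axis) for all tested genes in grey and the 35 autophagy genes in colour by their call. Dashed lines mark 1.5-fold, and grey points beyond the axes are not drawn. The 10 higher members reach 1.201 (Atg101), while no member lies below -0.47 (Rb1cc1).

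Within the initiation complex, the small subunit gene rose most and the scaffold gene fell most. Atg101, which encodes the subunit that binds and stabilises ATG13, had the largest rise of all 35 genes. It stood at 7.56, 10.9 and 10.2 CPM in Dox 1 to 3 and at 19.97, 21.9 and 23.8 CPM in SMNV 1 to 3. The lowest SMNV library was therefore above the highest Dox library, and the gene rose by 1.201 ± 0.13 on the log2 scale (± SE here and below, edgeR's adjusted p = 2.07e-06). Ulk1, the kinase that receives nutrient signals, was at 37.1, 39.5 and 47.0 CPM in Dox and 54.6, 56.9 and 57.1 in SMNV. It rose by 0.45 ± 0.09 (adjusted p = 0.000461), with no overlap of the groups. Its paralogue Ulk2 had -0.01 ± 0.08 (adjusted p = 0.929). Rb1cc1 encodes FIP200, the large scaffold of the complex. It went from 122, 107 and 118 CPM in Dox to 89.3, 82.0 and 79.6 in SMNV, the largest fall among the 35 genes (-0.47 ± 0.07, adjusted p = 4.28e-05). Atg13, the adaptor between kinase and scaffold, had -0.17 ± 0.08 and did not pass (adjusted p = 0.0792).

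On the length-scaled TPM of the authors, which allow levels to be compared between genes, the order within this complex differed between the groups. In Dox the Rb1cc1 level was highest of the 5 in every library (29.0 to 33.5 TPM), and Atg101 (11.8 to 17.1) and Ulk1 (14.2 to 18.02) were lowest and overlapped each other. In SMNV, Atg101 was highest in every library (29.8 to 33.9 TPM), and the other 4 genes lay together between 18.4 and 22.8 TPM. The sum over the 5 genes was 110.6 ± 0.344 TPM in Dox and 113.7 ± 4.21 in SMNV (SD, n = 3 each), and these sums overlapped. Atg101 thus took 13.5 ± 2.53% of the summed level in Dox and 27.8 ± 1.85% in SMNV, and Rb1cc1 28.5 ± 1.996% and 17.9 ± 1.92%.

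In the lipid kinase complex 2 of 6 genes fell and 1 rose (50% called, beside 60.4% of all tested genes). Becn1 encodes Beclin 1, the regulatory scaffold of VPS34. It was at 131, 110.0 and 122 CPM in Dox and at 92.0, 99.3 and 94.7 in SMNV, all below the Dox libraries, and fell by 0.34 on the log2 scale (SE 0.07, adjusted p = 0.000732). Pik3r4, the pseudokinase subunit VPS15, fell by 0.38 ± 0.07 with tight groups, at 55.2 ± 0.909 CPM in Dox and 42.3 ± 0.742 in SMNV (n = 3 each). The catalytic subunit gene Pik3c3 (VPS34) had -0.16 ± 0.08 and did not pass (adjusted p = 0.115), although its groups did not overlap. Uvrag, the subunit of the endosomal form of the complex, and Ambra1, a Beclin 1 partner, had 0.00 ± 0.08 and 0.04 ± 0.08. Atg14, which directs the complex to autophagosome formation, was the only one of these 6 genes to rise. It did so by 0.35 ± 0.13 from 11.6 ± 1.85 to 14.7 ± 0.932 CPM, and its call was lost without Dox 1 (0.22), SMNV 2 or SMNV 3.

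Among genes of membrane supply, the lipid transfer paralogues went in opposite directions. ATG2 proteins bridge the endoplasmic reticulum and the growing membrane and pass lipid between them. Atg2a was at 20.3, 30.04 and 27.2 CPM in Dox and at 50.5, 49.8 and 50.6 in SMNV, where the libraries were almost level. Its log2 fold change was 0.96 ± 0.11 (adjusted p = 4.19e-06). Atg2b went from 75.8, 68.0 and 69.8 CPM to 61.7, 62.6 and 59.0, a fall of 0.22 on the log2 scale (SE 0.07, adjusted p = 0.0122) that was lost without SMNV 3 and with a length offset (-0.13). In TPM, Atg2a stood at 0.276, 0.455 and 0.400 of the Atg2b level in Dox and at 0.841, 0.818 and 0.883 in SMNV. The paralogues were thus far apart in Dox and near each other in SMNV. Atg9a encodes the multispanning lipid scramblase of the seed vesicles. It was at 53.0, 55.8 and 54.8 CPM in Dox and 84.5, 78.7 and 83.6 in SMNV, a rise of 0.59 ± 0.07 (adjusted p = 2.57e-06). Of the phosphoinositide-binding proteins that act at the same site, Wipi2, which recruits ATG16L1, fell by 0.29 ± 0.09 and lost its call without SMNV 1, and Wipi1 had 0.01 ± 0.07.

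Of the 6 conjugation genes 3 fell and 3 did not pass with edgeR (50% called, beside 60.4% of all tested genes). Atg3, the E2-like enzyme that hands ATG8 proteins to lipid, fell from 88.4 ± 7.11 to 65.4 ± 3.02 CPM, by 0.43 ± 0.07 (adjusted p = 0.000121). Atg12, the ubiquitin-like tag, and Atg16l1, which carries the ATG12–ATG5 conjugate to the membrane, fell by 0.27 ± 0.07 and 0.32 ± 0.08. Atg5, the acceptor of ATG12, was at 33.7, 29.6 and 33.9 CPM in Dox and 35.1, 42.7 and 35.9 in SMNV. The groups did not overlap, but SMNV 2 stood above the other SMNV libraries, and the log2 fold change of 0.23 ± 0.10 missed the threshold (edgeR's adjusted p = 0.0512). It passed with RLE or upper-quartile scaling, with DESeq2, without a filter, and without Dox 1, SMNV 1 or SMNV 3. On log2(TPM + 1) it was 0.09 and with a length offset 0.08, neither past the threshold, and its TPM overlapped between the groups. Relative to its partner in TPM, Atg5 was below Atg12 in every Dox library (0.770 to 0.903 of its level) and above it in every SMNV library (1.07 to 1.31). Atg7, the shared E1-like enzyme, was at 14.7, 18.3 and 17.9 CPM in Dox and 15.3, 17.9 and 18.4 in SMNV, which overlapped throughout (0.02 ± 0.11, adjusted p = 0.895). Atg10, the E2-like enzyme of ATG12, had 0.11 ± 0.13.

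The ATG4 proteases trim ATG8 proteins before conjugation and cut them from membranes afterwards. All 3 tested family members were called, 2 higher and 1 lower, where 60.4% of all tested genes were called. Atg4d was at 5.80, 4.89 and 5.13 CPM in Dox and 9.98, 9.42 and 9.98 in SMNV, a rise of 0.89 ± 0.14 (adjusted p = 5.3e-05), and the groups did not overlap. Atg4b, the most abundant of the 3 in TPM, rose by 0.24 ± 0.07, from 38.0 ± 1.16 to 44.7 ± 0.285 CPM, and was not called on log2(TPM + 1) values (0.11). Atg4c fell by 0.35 ± 0.11, from 14.9 ± 1.04 to 11.7 ± 0.375 CPM. In TPM the ratio of Atg4d to Atg4c was 0.358 to 0.414 in Dox and 0.852 to 1.06 in SMNV, while the summed level of the 3 genes overlapped between the groups (46.4 ± 1.62 and 48.6 ± 1.47 TPM, n = 3 each). The row AABR07040864.1, which the deposited table describes as autophagy related 4A, was lower in SMNV, at 25.9 ± 3.02 against 35.9 ± 1.36 CPM (-0.47 ± 0.09, adjusted p = 0.000582). It lies outside the 35 genes and was picked by that description.

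Of the 5 ATG8 genes, Map1lc3b alone passed the test (20% called, beside 60.4% of all tested genes). It encodes LC3B, the protein most used to mark autophagosomes, and was at 53.2, 59.5 and 50.5 CPM in Dox and 75.0, 82.7 and 79.0 in SMNV. Every SMNV library was above every Dox library, and the rise was 0.54 ± 0.08 (adjusted p = 2.39e-05). Gabarap, a member of the sister subfamily that acts in later closure and fusion steps, had the highest TPM of all 35 genes in both groups. It was at 356, 314 and 306 CPM in Dox and 267, 308 and 299.5 in SMNV, where the ranges overlapped (-0.16 ± 0.07, adjusted p = 0.0754). Map1lc3a, Gabarapl1 and Gabarapl2 had 0.18 ± 0.11, 0.06 ± 0.07 and -0.06 ± 0.09. With a length offset both Gabarap (-0.31) and Gabarapl2 (-0.23) were called lower, as Gabarap was on log2(TPM + 1) values (-0.28). In TPM, Map1lc3b took 11.5% to 13.9% of the 5-gene sum in Dox and 17.6% to 18.5% in SMNV, and Gabarap 52.3% to 54.7% and 47.1% to 47.6%. The sum itself overlapped between the groups, at 922 ± 49.7 and 855 ± 37.8 TPM. Map1lc3b is 1 of 7 members whose estimated counts had decimals in at least 1 library (the others are Atg13, Becn1, Pik3r4, Atg10, Atg4d and Gabarapl2). No source used here says how those decimals arose, so reads shared with near-identical copies may be divided in these rows, and the values are less certain.

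The cargo receptors divided by member. Sqstm1 encodes p62, which links ubiquitinated cargo to LC3 and also feeds into NRF2 signalling. It was at 231, 279 and 284 CPM in Dox and 400.3, 406 and 443 in SMNV, with no overlap, and rose by 0.65 ± 0.08 (adjusted p = 5.46e-06). Calcoco1, a receptor for parts of the endoplasmic reticulum and Golgi, rose by 0.57 ± 0.08, from 81.3 ± 8.73 to 120.8 ± 2.83 CPM. It lay just under 1.5-fold, at 1.49, as did Map1lc3b at 1.45, whereas Atg9a lay just above at 1.51. Nbr1, the p62-related receptor, fell by 0.33 ± 0.06, from 242 ± 5.56 to 193 ± 1.91 CPM, and Tax1bp1, a ubiquitin-binding receptor of the same family as Calcoco1, fell by 0.23 ± 0.06, from 294 ± 11.4 to 249.8 ± 4.38 CPM. Optn, which acts in mitophagy and clearance of bacteria, had -0.12 ± 0.06 and did not pass (adjusted p = 0.111). In TPM, Sqstm1 was already the highest receptor in every Dox library. It took 37.0% to 42.3% of the summed level of the 5 receptors there and 52.8% to 56.2% in SMNV. Tax1bp1 went from 26.3% to 30.2% of that sum down to 18.7% to 20.1%, and the sum was 635 ± 27.2 TPM in Dox and 709 ± 20.8 in SMNV.

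**Figure D2:**
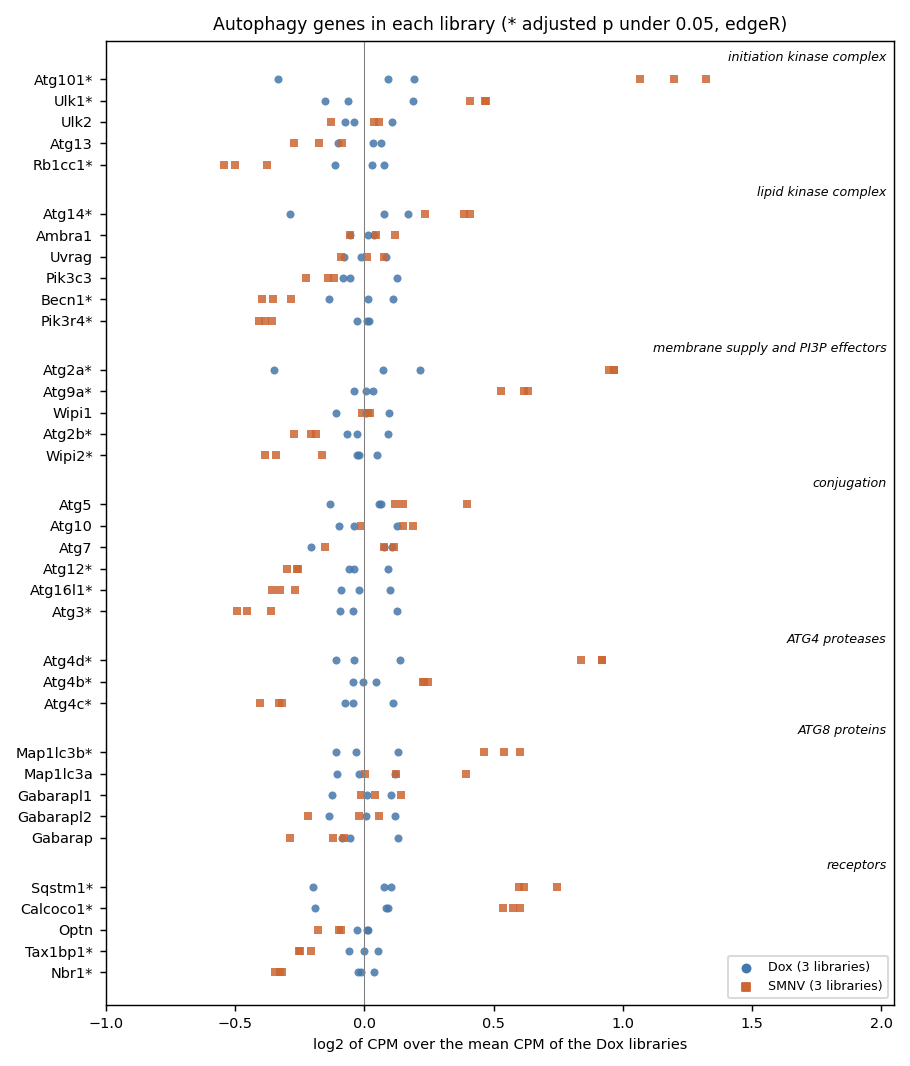
Each point is 1 library: log2 of its CPM over the mean CPM of the 3 Dox libraries (x axis), for the 35 genes ordered by role and by fold change. Asterisks mark genes past the threshold. Dox 1 is the lowest Dox library for Atg101, Atg2a, Sqstm1 and Calcoco1.

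**Figure D3:**
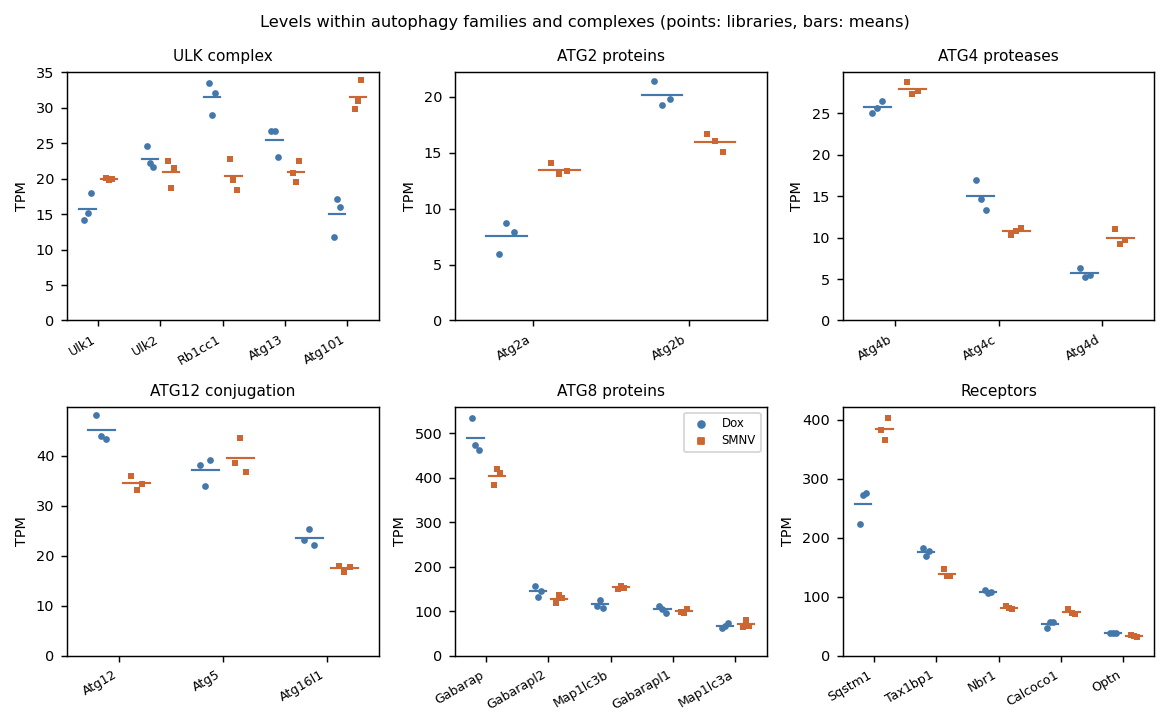
Levels in TPM (y axis) of genes within 6 families or complexes, with 3 Dox and 3 SMNV libraries as points and group means as bars. Atg101 goes from 15.0 to 31.6 TPM and Rb1cc1 from 31.5 to 20.3, and Atg2a approaches Atg2b.

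Over all 35 genes the order of TPM levels was led by Gabarap (491 TPM in Dox, 404 in SMNV) and Sqstm1 (258 and 384). In SMNV the ranges of this pair overlapped, at 383 to 419 TPM for Gabarap and 366 to 403 TPM for Sqstm1. Within each SMNV library Gabarap was still the higher, narrowly in SMNV 1 (383.1 against 382.5 TPM). Map1lc3b moved from rank 7 to rank 3 and Atg101 from rank 29 to rank 17. The lowest in Dox were Atg4d (5.68 and 9.97 TPM), Atg14 (6.57 and 7.69) and Atg2a (7.54 and 13.5), and all 3 were among the risers. The 10 risers had a median Dox level of 20.6 TPM and the 11 genes that fell 37.6 TPM. Over all tested genes the same medians were 14.4 TPM for 3841 risers and 32.5 TPM for 3773 genes that fell, the same order. Because the Dox level is also the denominator of the fold change, lower Dox levels among risers are partly built in. Spearman's rho between log2 fold change and gene length was -0.13 across the 35 genes and -0.17 across all tested genes, given as a description.

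Dox 1 stood furthest from the SMNV libraries on the first principal component. Of the 10 risers, 8 had their lowest Dox value in Dox 1, and of the 11 genes that fell, 8 had their highest Dox value there. Among all called genes the shares were 71.2% of risers and 62.8% of those that fell. Without Dox 1 the counts were again 10 higher and 11 lower, with Atg5 called in place of Atg14. The log2 fold changes without it were 1.06 for Atg101, 0.81 for Atg2a, 0.56 for Sqstm1, 0.48 for Calcoco1, 0.52 for Map1lc3b and -0.43 for Rb1cc1.

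Genes that regulate autophagy from upstream were examined from a separate list. Of 19 tested regulators, 9 rose, 4 fell and 6 did not pass, or 68.4% called, with a median log2 fold change of 0.23. Of all tested genes 60.4% were called, 30.5% higher and 29.9% lower, with a median of -0.01. The list was chosen with earlier results of these data known. Among its risers, Rptor, Mlst8, Prkab1 and Tfe3, named after their values were seen, overlapped between the groups in TPM. Tfe3 overlapped in CPM too. Tfeb, the master transcription factor of lysosome and autophagy genes, was low but did not overlap between the groups, at 2.24, 2.26 and 1.87 CPM in Dox and 6.46, 5.06 and 7.86 in SMNV (1.60 ± 0.21, adjusted p = 1.05e-05). Akt1s1, which encodes the mTORC1 inhibitor PRAS40, went from 10.7 ± 1.11 to 32.6 ± 4.59 CPM (1.61 ± 0.12). Stk11, encoding the AMPK-activating kinase LKB1, rose by 1.17 ± 0.11 and Flcn, encoding folliculin, a regulator of the lysosomal Rag GTPases, by 0.61 ± 0.10. Mtor itself was at 69.2 ± 5.45 and 69.5 ± 4.43 CPM (0.01 ± 0.08, adjusted p = 0.943). Prkaa1, an AMPK catalytic subunit gene, named after its values were seen, fell by 0.43 on the log2 scale. Prkaa2, another such gene on the list, did not pass the filter on low counts and was not tested.

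TFEB is known to bind E-box sequences of the CLEAR type, and the members' promoters were searched for them because Tfeb RNA differed. RefSeq promoters (build GRCr8, 250 bases before to 50 after the gene start) were found for 31 of the 35 genes. The match was by symbol first, and otherwise by gene identifier or synonym. The letters CACGTG, on either strand, were in 3 of the 31 (9.68%), against 6.42% of all 33469 promoters in the table. The longer TCACGTGA, which contains CACGTG, was in 1, that of Atg3 (3.23%, against 0.777%), and a 10-base CLEAR palindrome in none of the 31 (0.233% of all). The FOXO motif GTAAACA was in none of the 31 (3.78% of all), and the NRF2 core TGANNNNGC was in 17 (54.8%, against 40.5%). The NRF2 core is a loose pattern in which N is any base. All these background shares include promoters of genes not tested here, and promoters of like base composition were not compared. Atg3, with 2 CACGTG matches, fell, Atg14, with 1 match that begins after the gene start, rose, and Atg5, with 1, did not pass. In the other gene lists, the same search found the 10-base palindrome at Snap29, Epg5 and Vps33a, and TCACGTGA also at Vps11 and Vps16. CACGTG alone was at Akt1s1, Rheb and Bnip3. The share of promoters with a match was not computed for these lists. These genes are named here for their matches. Of the fusion genes among them, Snap29 and Epg5 were called lower and Vps11 higher, and Vps16 and Vps33a did not pass. In TPM the groups overlapped for Vps11, at 47.65 to 57.54 in Dox and 57.18 to 59.81 in SMNV. Akt1s1 was called higher and Rheb lower, and Bnip3 did not pass. The upstream 250 bases are shown for Atg3 and Atg5, with CACGTG in capitals, and for Atg101 and Sqstm1, risers of over 1.5-fold whose windows hold no match to any of these motifs. They lie on the minus strand at chr11:69159281-69159530 (Atg3), the plus strand at chr20:49380585-49380834 (Atg5), the plus strand at chr7:134276995-134277244 (Atg101) and the minus strand at chr10:35037751-35038000 (Sqstm1), and each is read 5′ to 3′ toward its gene.
Atg3: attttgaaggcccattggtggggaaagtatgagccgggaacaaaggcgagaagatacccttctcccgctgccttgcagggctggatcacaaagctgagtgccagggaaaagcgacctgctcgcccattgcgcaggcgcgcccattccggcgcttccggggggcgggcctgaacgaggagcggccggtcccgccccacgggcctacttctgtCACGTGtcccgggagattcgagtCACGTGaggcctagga
Atg5: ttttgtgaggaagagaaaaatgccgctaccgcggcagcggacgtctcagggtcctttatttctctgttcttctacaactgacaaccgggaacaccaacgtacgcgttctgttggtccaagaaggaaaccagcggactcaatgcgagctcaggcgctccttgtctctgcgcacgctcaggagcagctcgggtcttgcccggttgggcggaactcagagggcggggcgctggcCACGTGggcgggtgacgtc
Atg101: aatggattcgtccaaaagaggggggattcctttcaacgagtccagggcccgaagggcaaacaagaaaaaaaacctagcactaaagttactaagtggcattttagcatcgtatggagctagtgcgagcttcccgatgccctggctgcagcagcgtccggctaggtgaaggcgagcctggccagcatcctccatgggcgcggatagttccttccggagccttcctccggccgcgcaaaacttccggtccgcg
Sqstm1: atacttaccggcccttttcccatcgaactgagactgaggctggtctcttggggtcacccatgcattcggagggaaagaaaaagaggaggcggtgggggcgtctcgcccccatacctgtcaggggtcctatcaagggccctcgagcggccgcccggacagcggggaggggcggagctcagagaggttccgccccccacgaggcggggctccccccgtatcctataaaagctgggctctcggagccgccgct
A match is a description of these letters and not a binding site, and a window without them says nothing about the factor.

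The remaining lists cover other core genes, receptors and fusion. Of 10 further core genes tested, 3 rose, 2 fell and 5 did not pass (50% called). Vmp1, a lipid scramblase of the endoplasmic reticulum, fell from 124 ± 4.38 to 89.3 ± 4.38 CPM (-0.48 ± 0.06), and Sh3glb1, encoding the membrane-curving protein Bif-1, by 0.45 ± 0.06. Tecpr1, a tethering factor of lysosomes, rose by 0.64 ± 0.11, and Atg16l2, the ATG16L1 paralogue, by 0.57 ± 0.17 from 4.10 CPM. Of 14 rows of further receptors, 1 rose, 5 fell and 8 did not pass (42.9% called). The riser was Tex264, a receptor for the endoplasmic reticulum, from 45.3 ± 7.35 to 89.7 ± 4.10 CPM (0.98 ± 0.10). Ncoa4, the ferritin receptor, fell in both rows that carry its symbol (-0.49 ± 0.07 and -0.48 ± 0.07), Fundc1, a mitochondrial receptor, by 0.34 and Sec62 by 0.24. The Fundc1 call was lost on log2(TPM + 1) values (-0.14), where its groups overlapped. Of 13 genes for fusion with the lysosome, 2 rose, 6 fell and 5 did not pass (61.5% called). Their median was -0.16, beside -0.01 over all tested genes. Rab7a, chosen after its values were seen, was among those called lower on counts (-0.20 ± 0.06), but its mean TPM was 326 in Dox and 347 in SMNV, with overlapping groups. Snap29, a fusion SNARE, fell from 49.9 ± 4.82 to 33.1 ± 2.41 CPM (-0.59 ± 0.09), its partner Ykt6 by 0.32, and Vps41 of the HOPS tethering complex from 217 ± 10.96 to 148 ± 1.93 CPM (-0.55 ± 0.06), while Vps18 of the same complex rose by 0.74 ± 0.10. Over the 56 tested rows of all 4 lists, regulators included, 15 rose and 17 fell, or 57.1% called beside the background of 60.4%.

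**Figure D4:**
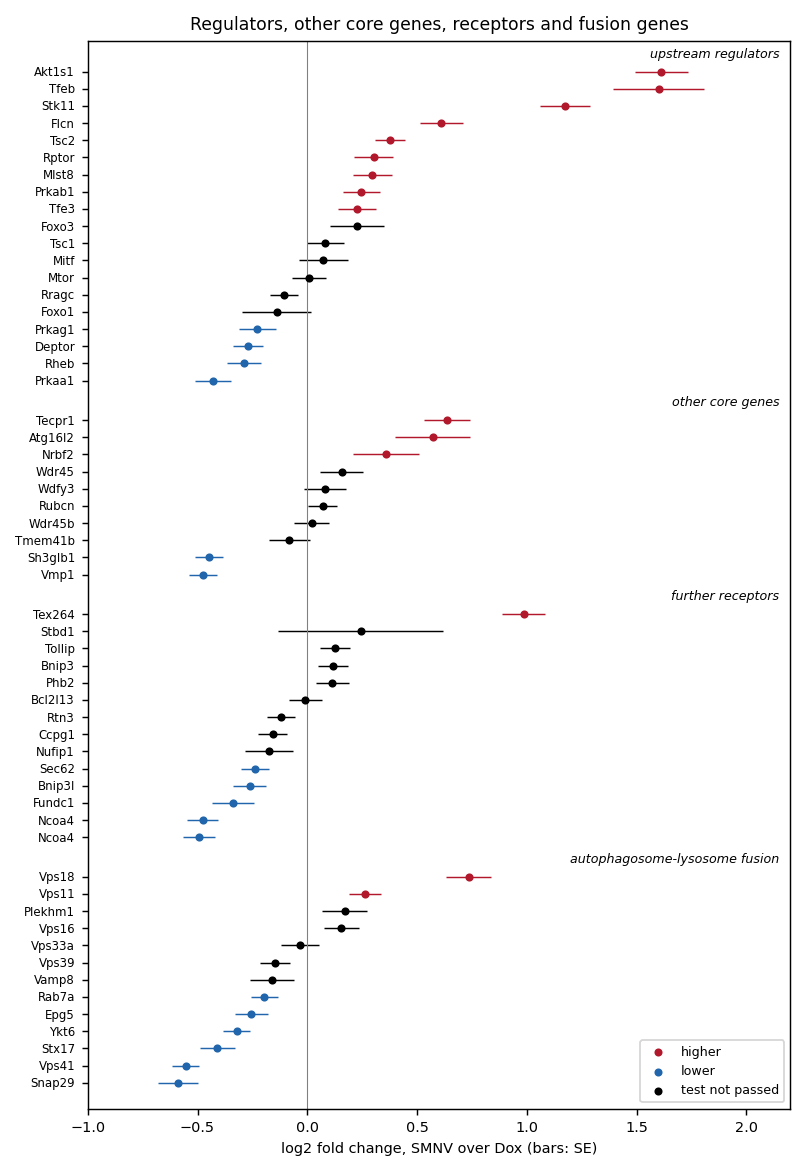
Log2 fold change (SMNV over Dox, x axis) with SE bars for genes of the pathway outside the 35, by list. Red marks higher, blue lower and black genes that did not pass; Akt1s1 and Tfeb lie near 1.6 and Snap29 and Vps41 below -0.5.

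More members were called lower on the authors' TPM values. With limma on log2(TPM + 1), 8 of the 35 genes were higher and 15 lower in place of 10 and 11, and their median was -0.12. All tested genes moved in the same way there: their median log2 fold change was -0.10 and 39.8% of called genes were higher in place of 50.4%. The calls of Atg14 and Atg4b were lost, and Atg13, Gabarap, Optn and Pik3c3 were called lower.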

How the data were processed

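Per the submitters' processing notes, the tools were fastp, HISAT2 and HTSeq and the build mRatBN7.2, with no roles or versions. No source used here states the strand setting or the annotation release, so reads of overlapping antisense genes may be mixed. The authors deposited estimated counts per gene, not normalized (17.9% to 18.8% of values above 0 had decimals), and TPM, length-scaled abundances that sum to about 1e+06 per library. Counts were rounded to whole numbers and compared with edgeR 4.0.16 in R 4.3.3 (filterByExpr, TMM factors, glmQLFit and glmQLFTest with group only, all 6 libraries), with p-values (two-sided) adjusted by Benjamini-Hochberg over the 12614 tested rows and a threshold of 0.05. CPM are counts scaled by TMM-adjusted library size, given as mean ± SD. The marker CPM use the unscaled total. Each SE was the size of the log2 fold change over the root of its F statistic. The design was written for whole counts, and its test was kept.

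The members and lists were chosen with earlier results of these data known. Values in every library are given for called members of at least 1.5-fold and for Ulk1, Becn1, Atg5, Atg7, Map1lc3b, Gabarap and Sqstm1. Those of Rb1cc1 and Atg2b were added after their values were seen. Of each list of other genes up to 4 with the smallest p were named, with Tfeb and Mtor. Limma 3.58.1 and DESeq2 1.42.0 served as alternatives. The tests were tried on counts simulated from the levels and spread of these data. Far fewer genes were altered there than were called here, so the trial does not test the results above. The labels do not say whether replicate numbers mark pairs. The libraries' deviations showed no pairing by number, which 3 libraries per group cannot exclude.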

Additional observations from a re-analysis of the deposited data

How the results depend on the processing

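Of the 21 called members, 11 kept direction and threshold in all 19 alternatives: Atg101, Atg2a, Atg4d, Sqstm1, Atg9a, Calcoco1, Map1lc3b and Ulk1 higher, and Rb1cc1, Atg3 and Pik3r4 lower. The other 10 kept their direction and lost the threshold in 1 or more, and 6 uncalled members gained a call in 1 or more. All 10 lost it in the test against 1.2-fold given below, which thus set this division. Atg12, Atg16l1, Atg4c, Becn1, Nbr1 and Tax1bp1 lost it in no other alternative, while Atg14 lost it in 7. The cause was not tested unless stated. A test against 1.2-fold (glmTreat), which demands larger changes by construction, left 8 members higher and 3 lower, and 9 and 8 of the other autophagy genes. On TPM (log2 of TPM + 1, of TPM + 0.1, and of TPM + 1 with equal medians) the members' median was -0.12, -0.13 and -0.13, all tested genes' medians were -0.10, -0.12 and -0.11, and 9 other autophagy genes were higher in each. On TPM, Tax1bp1 reached -0.36, Atg2b -0.34 and Sec62 -0.36, and Atg16l2 came down to 0.37, all still called. With a length offset the members' median was -0.057, and -0.056 with the replicate block as well. Leaving out 1 library each gave 9 to 11 members higher, 10 to 11 lower, a median of -0.037 to 0.043 (the highest without Dox 2), 11 to 15 other genes higher and 15 to 18 lower.

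Alternatives were run for single genes only where the gene is a member or was named by rule, and among those each sign change was in a gene that was not called. In the order of the 3 TPM settings, Ambra1 had -0.081, -0.086 and -0.088, Atg7 -0.14, -0.15 and -0.15, Gabarapl1 -0.059, -0.060 and -0.066, Mtor -0.10, -0.11 and -0.11, Uvrag -0.11, -0.12 and -0.12, and Wipi1 -0.086, -0.087 and -0.093. With the length offset, and then with the replicate block added, Atg7 had -0.057 and -0.056, Gabarapl1 -0.080 and -0.077, Uvrag -0.0049 and -0.0057, and Ulk2 0.0020 and 0.0029. Ulk2 had 0.0031 without a filter. Without single libraries the ranges were -0.075 to 0.10 for Atg7, -0.0024 to 0.11 for Gabarapl1, -0.12 to 0.025 for Gabarapl2, -0.042 to 0.069 for Mtor, -0.046 to 0.062 for Ulk2, -0.037 to 0.052 for Uvrag and -0.044 to 0.059 for Wipi1.

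Same-numbered Dox and SMNV libraries had correlated deviations of 0.0076, -0.12 and 0.0016, and 1 of 6 libraries correlated best with its own number, so the numbers were not taken as pairs; with the replicate block 10 members were higher and 11 lower, as without it. A promoter sequence was found for 74.9% of tested rows, under the 80% required, so the offset for base composition was not run. The precision is limited by 3 libraries per group and, for Tfeb, Atg4d, Atg10 and Atg101 among others, by levels under 10 CPM in Dox.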
